A study of Mus musculus with 8 samples.

Results

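The genes described here are the Hox, Pax, Gata, Sox, Tbx, Lhx, Prrx and sine oculis homeobox developmental regulators, 101 of the 35976 gene symbols in a count table from mouse full-grown oocytes. They were chosen by name alone, as every row with one of those family names and a number, except Lhx8, an oocyte gene. The families held 39 Hox, 9 Pax, 6 Gata, 19 Sox, 13 Tbx, 7 Lhx, 2 Prrx and 6 sine oculis homeobox genes. A total of 17 members had 0 counts in all 8 libraries, 84 had at least 1 count, and 38 passed the filter on low counts and could be tested. The other 46 counted members had between 1 and 36 counts summed over the 8 libraries, with a median of 8.

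The study measured full-length cDNA from about 20 pooled full-grown oocytes per library, freed of the zona pellucida, in 4 groups of 2 libraries. The first group is labelled DKO, for a double knockout of H2A.Z.1 and H2A.Z.2, the genes of the histone variant H2A.Z, and is set against H2A.Z CTR oocytes labelled wild type. The second is an Mll2 knockout (Mll2 KO), set against Mll2 WT oocytes. Mll2, also called Kmt2b, is a methyltransferase that places trimethylation on lysine 4 of histone H3 (H3K4me3), and the series title names this mark in oocytes as its subject. The Cre driver, the deleted exons, the age of the mice, and whether the libraries of a group came from different mice are not stated in the labels. The p-values below therefore measure the spread between these libraries, which may be technical.

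The members are transcription factors that bind DNA through homeodomains, paired domains, zinc fingers, HMG boxes or T-boxes. In embryos they lay out the body axis and its organs, and most are silent before implantation. In embryonic stem cells their promoters often carry H3K4me3 together with the repressive mark H3K27me3, and Mll2 is known as a main source of H3K4me3 there. Full-grown oocytes are close to transcriptional arrest, so their RNA mostly reflects what was made and kept during growth.

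Library totals lay between 20309233 and 30087863 counts, and the log-scale correlation of the 2 libraries of a group was between 0.984 and 0.989. Levels are given in normalised CPM (counts divided by the library total after scaling by the TMM factors of edgeR), and 1 count was worth 0.0330 to 0.0517 CPM. Counts are per gene, not per length. In the Mll2 line the targeted gene Kmt2b was at 8.73 and 9.27 CPM in KO libraries and 41.9 and 42.4 CPM in WT libraries (adjusted p = 2.72e-08). In the H2A.Z line the targeted genes went against the label. H2afz was at 322 and 317 CPM in the libraries labelled DKO and 23.9 and 29.9 CPM in CTR libraries (adjusted p = 6.63e-10), and H2afv was at 285 and 294 CPM in the libraries labelled DKO and 107.9 and 107.1 CPM in CTR libraries (adjusted p = 1.73e-07). H2afz was also higher in the other line, at 19.4 and 14.98 CPM in Mll2 KO libraries and 7.04 and 7.09 CPM in Mll2 WT libraries (1.28 ± 0.15, adjusted p = 1.21e-05). Kmt2b was at 20.4 and 20.5 CPM in the libraries labelled DKO and 13.7 and 15.4 CPM in CTR (0.49 ± 0.15, adjusted p = 0.018), a call lost without DKO 1 (0.0833), DKO 2 (0.0853), CTR 1 (0.153), CTR 2 (0.0601) or Mll2 WT 2 (0.132) and with library size as the scaling (0.0872). Which exons those counts came from is not shown by a count per gene, so the group is called "labelled DKO" throughout, and each direction below is that of the label. The summed level of 15 oocyte markers was 22189 and 25552 CPM in libraries labelled DKO, 24455 and 23296 CPM in CTR, 17090 and 15015 CPM in Mll2 KO and 17370 and 21698 CPM in Mll2 WT.

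Differences were tested with edgeR's quasi-likelihood test over 16847 genes, with Benjamini-Hochberg adjustment over all of them, and a member was called at an adjusted p under 0.05. Fold changes are log2 values ± SE, the mutant label over its own control. The median log2 fold change over all tested genes was 0.12 in the H2A.Z line and 0.02 in the Mll2 line. It was 0.00 and 0.14 with library size as the only scaling, and 0.01 and 0.02 with each line fitted alone. The small rises of Hoxa7 and Gata1 under the DKO label are therefore given relative to the 0.12 as well. All other changes are given as fitted.

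In the libraries labelled DKO, 15 of the 38 tested members were higher than in CTR (39.5%) and 4 were lower (10.5%). Among all tested genes 19.4% were higher and 11.5% were lower, 30.9% in all. The members that rose included Hoxa7, Hoxb1, Hoxd1, Hoxd9, Hoxd13, Pax6, Gata1, Gata4, Sox2, Sox12, Sox17, Lhx2 and Prrx1, and those that fell were Hoxa10, Pax2, Tbx10 and Lhx5. In Mll2 KO oocytes 4 members were higher (10.5%) and 6 lower (15.8%), against 14.4% higher and 16.2% lower among all tested genes, 30.6% in all. Sox2, Sox5, Sox6 and Lhx2 rose in Mll2 KO, and the members that fell included Hoxb4, Hoxc13, Hoxd13, Sox8 and Lhx5. The share of members called in the Mll2 line was near the share of all genes, and in the H2A.Z line it was above it for genes that rose. The same shares of all genes apply to the counts by family and by list below, most of which rest on few tested genes. The numbers of members called moved between fits, and so did the number tested and the calls over all genes. A fit without 1 library leaves a group with a single library, so it does not show what the members' share rests on. Members higher under the DKO label numbered 7 without DKO 1, 7 without CTR 1, 9 without CTR 2 and 10 with library size as the scaling, and those lower numbered 2 without DKO 1, DKO 2 or CTR 2. In Mll2 KO the higher members numbered 8 without KO 1, 1 without WT 2 and 7 without the filter, and the lower ones 9 without KO 2, 1 without WT 2, 4 with library size as the scaling and 3 with DESeq2. The median log2 fold change of the tested members was 0.44 in the H2A.Z line and 0.03 in the Mll2 line. The filter bears on these counts. Of the members that rose in libraries labelled DKO, 5 (Hoxb1, Hoxd1, Hoxd9, Sox12 and Sox17) were over the filter's level in no CTR library, and of those that fell in Mll2 KO, 3 (Hoxb4 and Hoxc13 among them) were over it in no KO library. Hoxa10, lower under the DKO label, was over it in no library labelled DKO. Hoxd1, Hoxa10 and Hoxb4 were over it only in libraries of the group in which they were high, and so had to differ to be tested. Sox17 was over it in 2 libraries labelled DKO and 1 Mll2 KO library, and Hoxc13 in 1 CTR and 1 Mll2 WT library. Both genes also needed a library of the group in which they were high. The adjusted p of all these genes, below as well, is for differences that the filter helped to select.

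**Figure D1:**
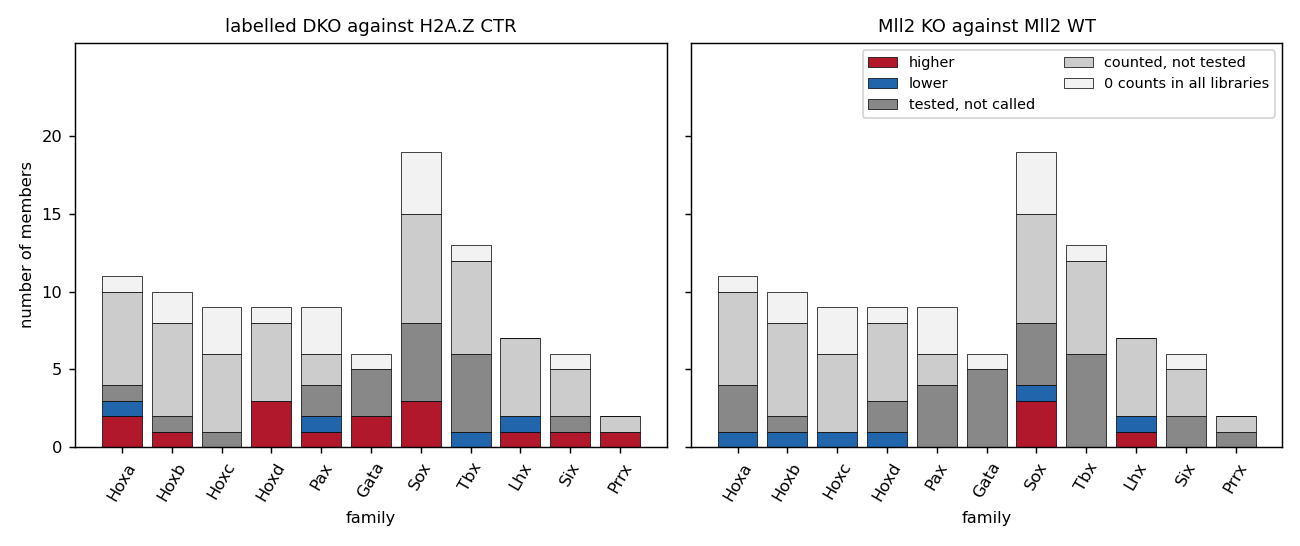
Number of members by family, stacked by outcome, for the libraries labelled DKO against H2A.Z CTR (left) and Mll2 KO against Mll2 WT (right). Of 101 members, 17 had 0 counts and 46 were counted without being tested. The Hox families held 10 of the 38 tested members and carried 6 of the 15 higher calls on the left and 4 of the 6 lower calls on the right.

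A total of 5 members were called in both lines, which is 26.3% of the 19 calls in the H2A.Z line and 50% of the 10 calls in the Mll2 line. Over all genes 2128 were called in both, 40.9% and 41.3% of the calls of each line. Among them, Sox2 and Lhx2 were higher in both, Lhx5 was lower in both, and Hoxd13 was higher under the DKO label and lower in Mll2 KO. The lines have separate controls. The difference between the 2 fold changes was itself called for 9 of 38 members (23.7%), against 19.5% of all tested genes. Without DKO 2 or Mll2 WT 1 it was called for 5 members. In the fit of all 8 libraries it was higher in the H2A.Z line for 8 members and lower for 1, against 12.9% and 6.68% of all tested genes. It was not called for Hoxa7, Hoxb1, Hoxb4, Hoxc13, Hoxd1, Pax2, Sox8, Sox17 or Tbx10. Their changes were therefore not shown to be particular to either line.

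**Figure D2:**
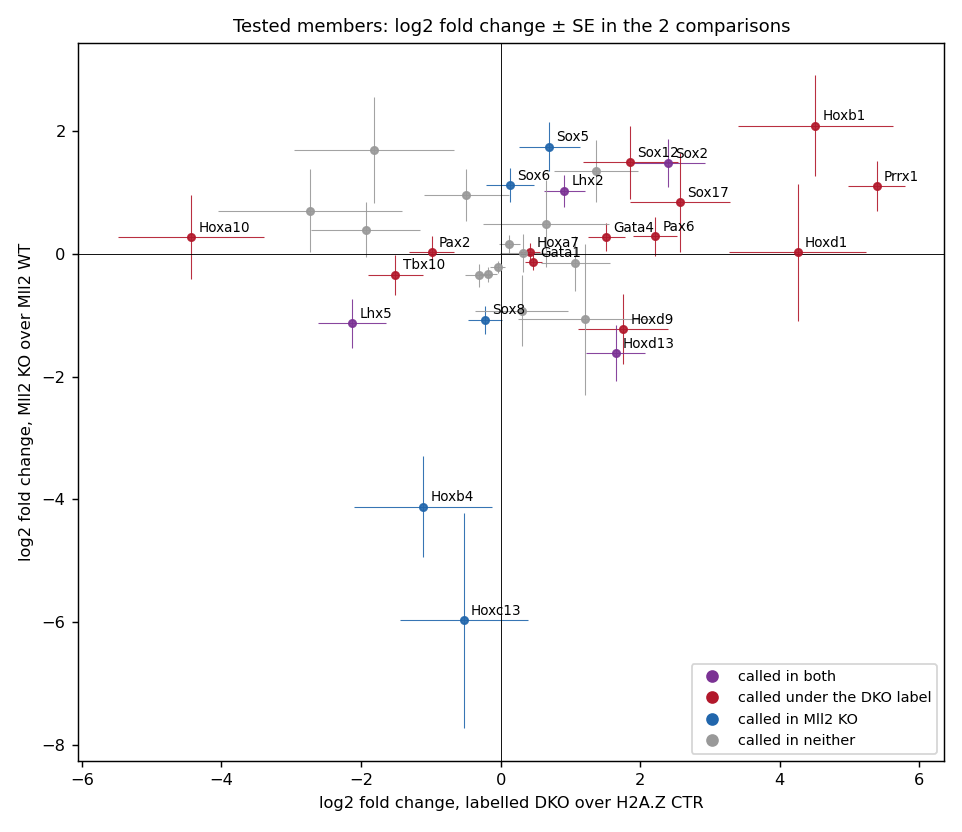
Log2 fold change ± SE of 36 of the 38 tested members, labelled DKO over H2A.Z CTR on the horizontal axis and Mll2 KO over Mll2 WT on the vertical axis, each from 2 libraries a group. Prrx1 lies farthest right at 5.39, Hoxc13 lowest at -5.97, and Hoxd13 is called with opposite signs on the 2 axes.

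The 250 bases in front of the annotated transcription start are printed for 5 members, because H2A.Z and Mll2-dependent H3K4me3 are both known to sit at CpG-rich promoters, and because these 5 span the patterns above. The sequences are RefSeq's for mouse build mm10 (GRCm38.p6), 5′ to 3′ on the gene's strand, and capitals mark CG dinucleotides. A single start was used per gene, here and in the medians below, and other starts of a gene were not examined. Hoxd13 (chr2:74667975-74668224, plus strand, higher under the DKO label and lower in Mll2 KO) had 31 CG in this window:
Hoxd13: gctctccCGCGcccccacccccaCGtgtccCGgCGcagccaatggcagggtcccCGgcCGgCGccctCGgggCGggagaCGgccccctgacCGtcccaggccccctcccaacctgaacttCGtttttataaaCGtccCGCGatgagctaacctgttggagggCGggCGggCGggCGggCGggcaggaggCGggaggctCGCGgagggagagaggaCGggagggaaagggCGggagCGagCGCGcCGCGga
Sox2 (chr3:34649745-34649994, plus strand) and Lhx2 (chr2:38339031-38339280, plus strand), higher in both lines, had 27 and 25 CG:
Sox2: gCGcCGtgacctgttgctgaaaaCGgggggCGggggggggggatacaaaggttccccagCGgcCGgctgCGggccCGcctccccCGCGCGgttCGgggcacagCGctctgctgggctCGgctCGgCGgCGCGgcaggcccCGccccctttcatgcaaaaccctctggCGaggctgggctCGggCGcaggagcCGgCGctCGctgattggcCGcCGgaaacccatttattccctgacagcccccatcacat
Lhx2: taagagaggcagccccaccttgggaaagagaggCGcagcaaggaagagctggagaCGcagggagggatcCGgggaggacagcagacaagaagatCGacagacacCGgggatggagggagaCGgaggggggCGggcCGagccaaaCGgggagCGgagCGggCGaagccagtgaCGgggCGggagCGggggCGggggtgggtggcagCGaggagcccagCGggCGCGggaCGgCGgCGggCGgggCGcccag
Hoxb4 (chr11:96318017-96318266, plus strand), lower in Mll2 KO, had 14 CG, and Hoxa10 (chr6:52240855-52241104, minus strand), lower under the DKO label, had 7:
Hoxb4: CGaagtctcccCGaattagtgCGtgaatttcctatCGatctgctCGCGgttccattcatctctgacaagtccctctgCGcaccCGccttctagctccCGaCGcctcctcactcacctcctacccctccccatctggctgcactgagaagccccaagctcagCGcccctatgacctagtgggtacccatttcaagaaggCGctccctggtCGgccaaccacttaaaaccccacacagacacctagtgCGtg
Hoxa10: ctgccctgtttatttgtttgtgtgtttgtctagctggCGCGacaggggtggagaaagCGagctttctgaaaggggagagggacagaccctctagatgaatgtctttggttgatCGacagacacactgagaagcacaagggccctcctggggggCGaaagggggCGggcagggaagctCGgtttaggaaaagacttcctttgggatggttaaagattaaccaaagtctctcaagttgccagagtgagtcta

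The RefSeq table held 68 of the 101 members. Their windows had a median of 13.5 CG, against 13 for 12440 tested genes and 6 for all 27025 genes in the table. At least 10 CG were found in 66.2% of members, 61.2% of tested genes and 38.2% of all genes. The members with 0 counts had a median of 13 CG (n = 10), close to that of the tested genes. By call, the median was 15 for members higher under the DKO label (n = 11), 5 for those lower (n = 3), 17 for those higher in Mll2 KO (n = 4), 18 for those lower (n = 3) and 19 for tested members called in neither (n = 10). With so few members these medians are descriptions only. The motif TATAAA, read on both strands, stood in the Hoxd13 window and in none of the other 4 printed. It was found in 8.82% of members, 8.18% of tested genes and 13% of all genes.

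Most of the members' RNA came from 6 genes that were at 10 CPM or more in every group: Hoxa7, Gata1, Gata3, Sox15, Tbx4 and Tbx19. They held 78.9% and 79.4% of the members' summed CPM in the libraries labelled DKO, 89.0% and 88.1% in CTR, 78.2% and 74.5% in Mll2 KO and 81.0% and 81.4% in Mll2 WT. Tbx4, a T-box factor known for hindlimb and lung development, was at 75.1 and 70.02 CPM in libraries labelled DKO and 76.5 and 73.1 CPM in CTR, with a log2 fold change of -0.04 ± 0.11 (adjusted p = 0.79). It was at 97.3 and 108 CPM in Mll2 KO and 121 and 118 CPM in Mll2 WT, a log2 fold change of -0.21 ± 0.10 that did not pass (adjusted p = 0.136), although without Mll2 KO 2 it did (adjusted p = 0.0123). The KO and WT libraries did not overlap, while the H2A.Z groups did. Tbx19, a factor of pituitary corticotroph cells, was at 15.1 and 10.5 CPM under the DKO label and 16.5 and 15.3 CPM in CTR (adjusted p = 0.239), and at 13.8 and 17.7 CPM in Mll2 KO and 20.9 and 19.2 CPM in Mll2 WT (adjusted p = 0.166). Both its mutant groups lay below their controls without passing the test. The call depended on the libraries fitted together, since Tbx19 passed under the DKO label when the H2A.Z line was fitted alone (adjusted p = 0.0248) and without Mll2 KO 1 (0.0315) or KO 2 (0.0323), and in Mll2 KO without KO 2 (adjusted p = 0.022).

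Sox15, an HMG-box factor known from trophoblast and muscle precursors, was at 30.7 and 30.2 CPM in libraries labelled DKO and 25.6 and 30.1 CPM in CTR (log2 fold change 0.13 ± 0.15, adjusted p = 0.558). In the Mll2 line it was at 19.0 and 16.2 CPM in KO and 14.8 and 16.7 CPM in WT (0.16 ± 0.15, adjusted p = 0.46), with overlapping groups. Its level was higher in both H2A.Z groups than in both Mll2 groups, and a comparison between the lines' control groups was not part of the design. Per kilobase of exon, Sox15 was the most abundant member in the H2A.Z line, at 35.4 CPM per kb under the DKO label and 32.3 in CTR, and Tbx4 was in the Mll2 line, at 30.2 CPM per kb in KO and 35.1 in WT.

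**Figure D3:**
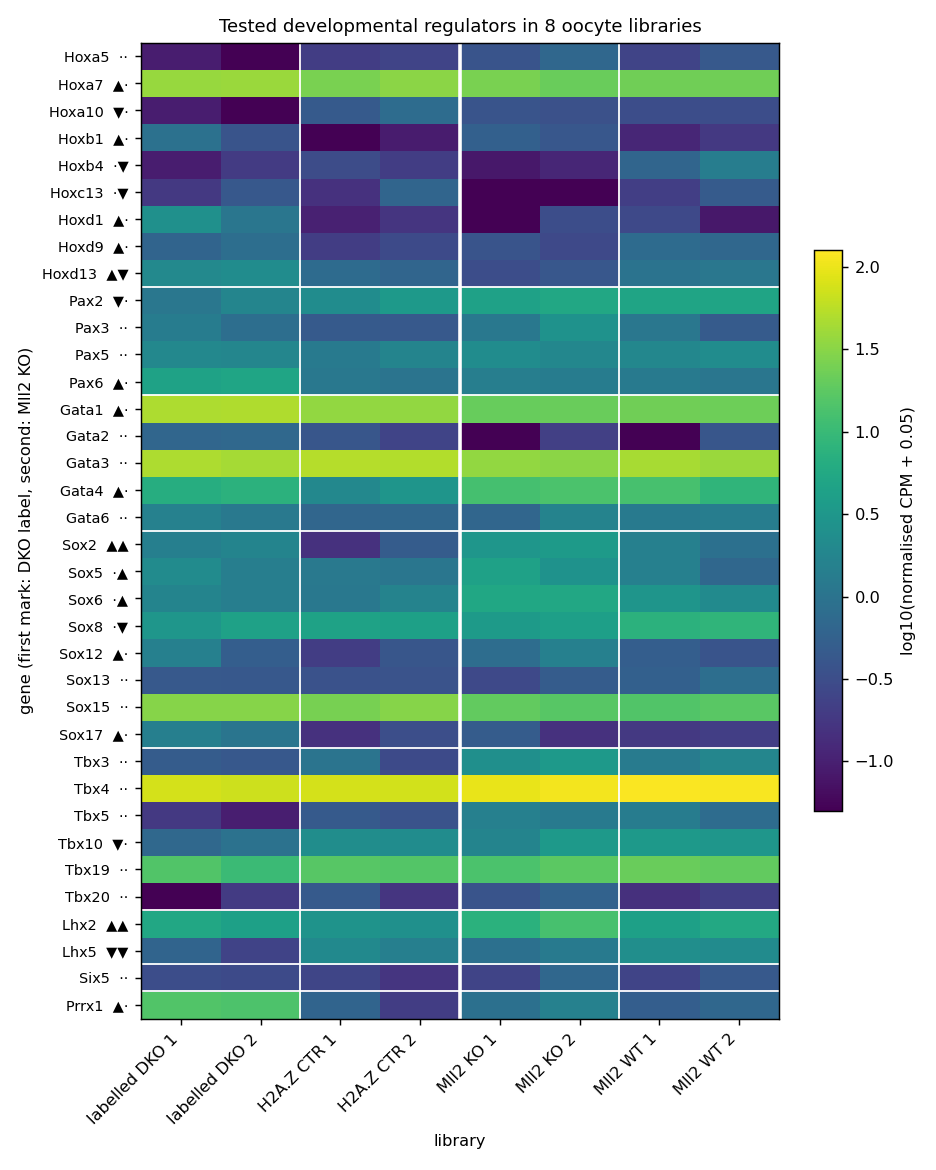
Level of 36 of the 38 tested members in each of the 8 libraries, as log10 of normalised CPM plus 0.05, with families set apart by lines and triangles for higher and lower calls in each comparison. Hoxa7, Gata1, Gata3, Sox15, Tbx4 and Tbx19 form bright rows in every library and Prrx1 reads 15 and 14 CPM in the libraries labelled DKO against 0.568 and 0.159 CPM in CTR.

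Hox genes give positional identity along the body axis and lie in 4 clusters, where genes of 1 paralogue group have the same number. Hoxa7 was the only Hox gene above 10 CPM in any group, with 37.9 and 38.9 CPM in the libraries labelled DKO and 25.6 and 31.8 CPM in CTR. Both libraries labelled DKO lay above both CTR libraries, a log2 fold change of 0.42 ± 0.15 (adjusted p = 0.044), or 0.29 above the median gene. This small change lost its call in every fit that left out 1 library, with adjusted p between 0.0535 and 0.341, and with library size as the scaling (adjusted p = 0.183), RLE size factors (0.0694) or DESeq2 (0.074). In the Mll2 line it was at 25.9 and 21.1 CPM in KO and 23.2 and 23.0 CPM in WT (adjusted p = 0.913), with overlap.

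The other Hox genes were low. Their summed level was 9.97 and 8.44 CPM in the libraries labelled DKO and 2.43 and 4.66 CPM in CTR, against 3.40 and 3.06 CPM in Mll2 KO and 5.42 and 6.13 CPM in Mll2 WT. In both lines the groups did not overlap, with the sum higher under the DKO label and lower in Mll2 KO. Of 10 tested Hox genes, 6 were higher and 1 lower under the DKO label, against 19.4% higher and 11.5% lower among all tested genes. In Mll2 KO 4 were lower and 0 higher by edgeR, with 1 higher at an unadjusted p under 0.05 and 0 by DESeq2. Among all tested genes 16.2% were lower and 14.4% higher in Mll2 KO by edgeR.

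Hoxb1 and Hoxd1, which lie at the 3′ ends of their clusters and are of the same paralogue group, rose under the DKO label. Hoxb1, needed for hindbrain rhombomere identity, was at 0.887 and 0.332 CPM in libraries labelled DKO and 0 and 0.0398 CPM in CTR, 27 counts against 1. That count ratio was 27.5 with a 95% counting interval of 4.53 to 1126, and the log2 fold change was 4.51 ± 1.11 (adjusted p = 0.00646). The groups did not overlap, but the call was lost without DKO 1 (adjusted p = 0.103) or CTR 1 (0.0677). In the Mll2 line Hoxb1 was at 0.505 and 0.369 CPM in KO and 0.0661 and 0.132 CPM in WT, 26 counts against 6, which did not pass (adjusted p = 0.0642). Hoxd1 was at 2.53 and 1.04 CPM in libraries labelled DKO and 0.0517 and 0.119 CPM in CTR, a log2 fold change of 4.25 ± 0.98 (adjusted p = 0.00413). It lost its call without DKO 1 (adjusted p = 0.0831) or CTR 1 (0.0508), and in the Mll2 line it had 8 counts in each group (adjusted p = 0.987).

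At the 5′ end of the Hoxd cluster, Hoxd13, which shapes digits and the genital region, went in opposite directions in the lines. It was at 1.95 and 2.18 CPM in libraries labelled DKO and 0.723 and 0.597 CPM in CTR, and at 0.270 and 0.369 CPM in Mll2 KO and 0.925 and 1.05 CPM in Mll2 WT. Neither line's groups overlapped. The log2 fold change was 1.65 ± 0.42 under the DKO label (adjusted p = 0.00745) and -1.62 ± 0.45 in Mll2 KO (adjusted p = 0.0132). The difference of 3.26 ± 0.61 (adjusted p = 0.00171) passed in every fit run, whereas the rise was lost without CTR 2 (adjusted p = 0.08) and the fall without KO 1 (0.0555) or WT 2 (0.0777). Hoxd9, a gene of limb and trunk patterning, was at 0.576 and 0.806 CPM in libraries labelled DKO and 0.155 and 0.239 CPM in CTR. Its rise of 1.76 ± 0.64 stood just under the threshold (adjusted p = 0.0488) and was lost in all 14 alternative fits, with adjusted p between 0.0507 and 0.225. In the Mll2 line it was at 0.337 and 0.235 CPM in KO and 0.727 and 0.626 CPM in WT (-1.23 ± 0.57, adjusted p = 0.113), without overlap.

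Hoxa10, known for its role in the uterus and the posterior trunk, was the Hox gene that fell under the DKO label. It was at 0.0443 and 0 CPM in libraries labelled DKO and 0.413 and 0.757 CPM in CTR, 1 count against 27. The count ratio was 0.0377 with a 95% counting interval of 0.000922 to 0.229, and the log2 fold change was -4.44 ± 1.05 (adjusted p = 0.00489). The call was lost without DKO 2 (adjusted p = 0.0578) or CTR 2 (0.0721). Mll2 KO had 0.337 and 0.302 CPM and Mll2 WT 0.264 and 0.264 CPM (adjusted p = 0.793). Hoxa5, a gene of lung and neck development, had 1 and 0 counts in libraries labelled DKO and 3 and 5 in CTR and did not pass (adjusted p = 0.131).

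In Mll2 KO, Hoxb4 and Hoxc13 fell as well. Hoxb4, best known for promoting expansion of blood stem cells, was at 0.0337 and 0.0672 CPM in Mll2 KO and 0.595 and 1.32 CPM in Mll2 WT, 3 counts against 58. The count ratio was 0.0527 (95% counting interval 0.0106 to 0.162) and the log2 fold change -4.12 ± 0.83 (adjusted p = 0.00157), and the groups did not overlap. Without WT 2 the adjusted p was 0.0506. In the H2A.Z line Hoxb4 was at 0.0443 and 0.142 CPM under the DKO label and 0.258 and 0.159 CPM in CTR (adjusted p = 0.422). Its difference between lines, 3.01 ± 1.44, did not pass (adjusted p = 0.156). Hoxc13, a gene of hair and nail formation, had 0 and 0 counts in Mll2 KO and 5 and 13 in Mll2 WT (adjusted p = 0.0187). The 95% counting interval of its count ratio, Mll2 KO over Mll2 WT, was 0 to 0.232. The call was lost without KO 2 (adjusted p = 0.0586) or WT 2 (0.136), and in the H2A.Z line 0.133 and 0.379 CPM under the DKO label overlapped 0.103 and 0.597 CPM in CTR (adjusted p = 0.703).

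**Figure D4:**
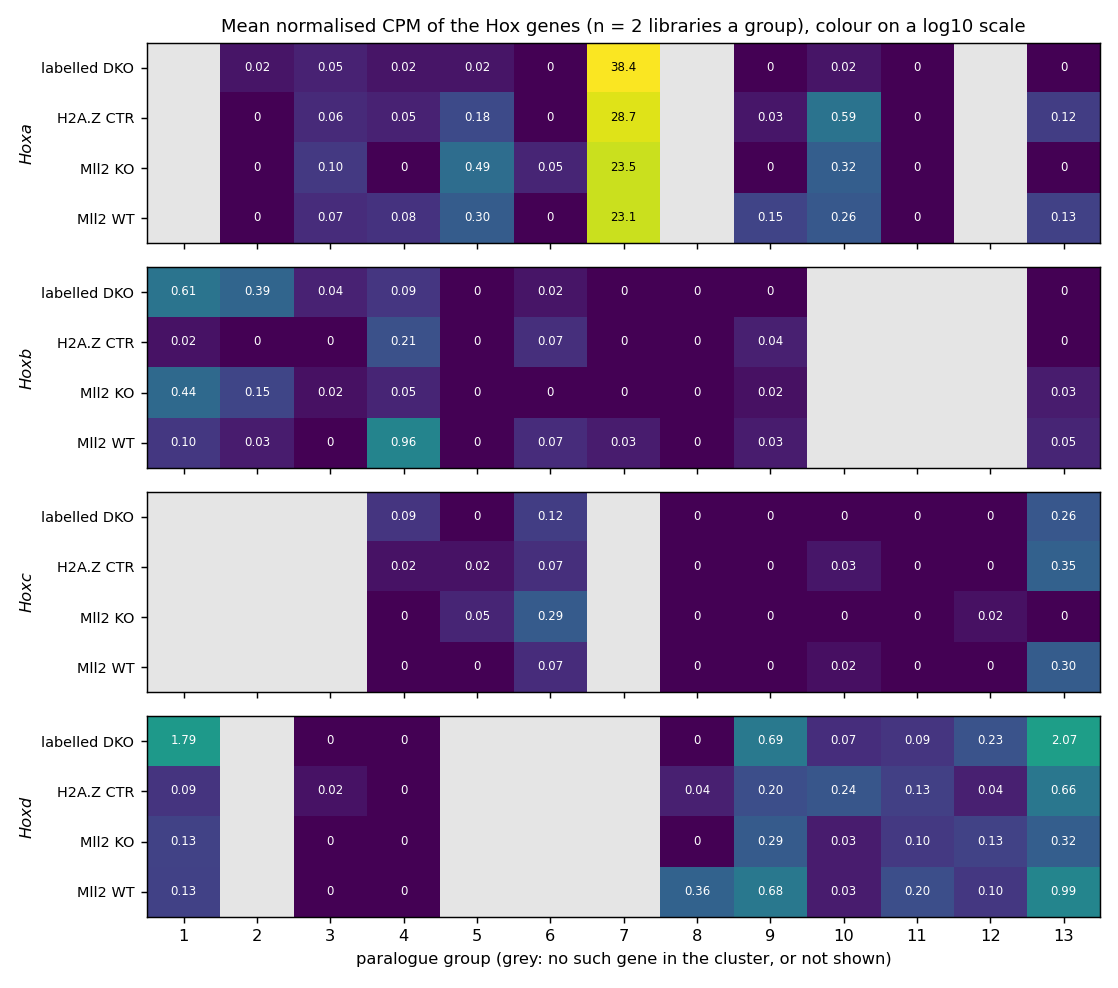
Mean normalised CPM (n = 2 libraries) of the Hox genes by cluster and paralogue group, for the 4 groups of oocytes, with colour on a log10 scale. Hoxa7 is the only gene above 10 CPM, and in group 1 Hoxb1 and Hoxd1 read 0.61 and 1.79 CPM under the DKO label against 0.02 and 0.09 CPM in H2A.Z CTR.

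Among the 22 Hox genes that were counted but not tested, a few had a one-sided pattern, and these were picked after their values were seen. Hoxb2 had 8 and 9 counts in libraries labelled DKO and 0 and 0 in CTR, at least 5.77-fold higher against the floor, and 9 and 0 in Mll2 KO against 2 and 0 in Mll2 WT. Hoxd8 had 0 and 0 counts in Mll2 KO and 10 and 12 in Mll2 WT, at least 7.19-fold lower. Without the filter both passed (adjusted p = 0.00944 and 0.00683). Hoxa13 had 0 and 0 counts in Mll2 KO and 4 and 4 in Mll2 WT (interval 0 to 0.597). Hoxa9 had 0 and 0 in Mll2 KO and 6 and 3 in Mll2 WT (interval 0 to 0.516). Without the filter neither of these passed. The 7 Hox genes with 0 counts everywhere were Hoxa11, Hoxb5, Hoxb8, Hoxc8, Hoxc9, Hoxc11 and Hoxd4. In each library a count of 0 allows up to 3 counts, which is 0.0989 to 0.155 CPM.

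Hox proteins bind DNA with Pbx, Meis and Pknox homeodomain partners. Of 9 such genes 8 were tested, with 2 higher and 1 lower under the DKO label and 1 higher and 1 lower in Mll2 KO. Pbx2 rose in both, with 11.2 and 9.06 CPM under the DKO label and 5.84 and 6.45 CPM in CTR (0.72 ± 0.23, adjusted p = 0.0254), and 24.2 and 39.6 CPM in Mll2 KO and 15 and 16.8 CPM in Mll2 WT (1.00 ± 0.20, adjusted p = 0.00179). Pbx3 fell in both, with 1.11 and 1.42 CPM under the DKO label and 2.95 and 2.71 CPM in CTR (-1.16 ± 0.33, adjusted p = 0.0139), and 1.72 and 1.14 CPM in Mll2 KO and 6.01 and 4.48 CPM in Mll2 WT (-1.87 ± 0.30, adjusted p = 0.000235). The Mll2 calls of both genes passed in every fit run. Under the DKO label Pbx2 was lost without DKO 1 (adjusted p = 0.196), CTR 1 (0.143), CTR 2 (0.0902) or Mll2 WT 2 (0.0919) and with library size as the scaling (0.0745), and Pbx3 without DKO 1 (0.122), CTR 1 (0.0786) or CTR 2 (0.0579). Pknox2 had 26 and 37 counts in libraries labelled DKO and 1 and 0 in CTR (adjusted p = 0.00105) and did not pass in the Mll2 line (adjusted p = 0.626).

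Pax and Eya genes belong to a network that specifies eye, ear, kidney and muscle. Pax6, which governs eye, forebrain and pancreas development (chr2:105668896-105698410), was at 4.48 and 4.98 CPM in libraries labelled DKO and 1.09 and 0.956 CPM in CTR. In Mll2 KO it was at 1.38 and 1.28 CPM, with 1.16 and 1.02 CPM in Mll2 WT. The libraries labelled DKO stood apart from the other 6. The rise of 2.21 ± 0.31 (adjusted p = 0.000105) and its difference from the Mll2 line, 1.93 ± 0.45 (adjusted p = 0.00717), passed in every fit run, and the Mll2 effect of 0.29 ± 0.32 did not pass (adjusted p = 0.526). Pax2, a kidney and optic stalk gene, moved the other way, with 1.06 and 1.71 CPM in libraries labelled DKO and 2.17 and 3.27 CPM in CTR (-0.99 ± 0.32, adjusted p = 0.0282). It lost its call without DKO 1 (adjusted p = 0.242) or CTR 2 (0.291), and was at 4.35 and 5.37 CPM in Mll2 KO and 4.72 and 4.85 CPM in Mll2 WT (adjusted p = 0.956). Pax3, for neural crest and muscle, and Pax5, for B cells, were tested without a call in either line. Pax9 and Pax4 had 28 and 2 counts in all, too few to test, and Pax1, Pax7 and Pax8 had 0.

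Of the Eya and Dach cofactors Eya1 to Eya4, Dach1 and Dach2, 4 were tested and edgeR and DESeq2 called 0 in either line, with 2 under the DKO label and 0 in Mll2 KO at an unadjusted p under 0.05. Six5 was tested without a call, and Six2, Six3 and Six4 had 12 counts or fewer each and Six6 had 0.

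Gata zinc-finger factors steer blood (Gata1, Gata2, Gata3) and endoderm, heart and gonad (Gata4, Gata6). Gata1 was at 47.4 and 49.7 CPM in libraries labelled DKO and 34.8 and 35.3 CPM in CTR, a log2 fold change of 0.47 ± 0.13 (adjusted p = 0.0104), or 0.34 above the median gene. In Mll2 KO it was at 20.1 and 21.2 CPM and in Mll2 WT at 23.1 and 22.2 CPM (-0.13 ± 0.13, adjusted p = 0.46). Neither line's groups overlapped, and the lines differed by 0.60 ± 0.18 (adjusted p = 0.0272). The rise was lost without DKO 1 (adjusted p = 0.0518), DKO 2 (0.0834), CTR 1 (0.0828), CTR 2 (0.0782) or Mll2 WT 2 (0.0895), and with library size as the scaling (0.064). The difference between lines lost its call in 7 of 8 fits without 1 library, with adjusted p between 0.0594 and 0.16, and with RLE size factors (0.0537) or library size as the scaling (0.212).

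Gata4 (chr14:63198914-63271712) was at 6.56 and 7.54 CPM in libraries labelled DKO and 1.91 and 2.95 CPM in CTR, and at 12.3 and 13.6 CPM in Mll2 KO and 13 and 8.34 CPM in Mll2 WT. The H2A.Z groups did not overlap and the Mll2 groups did. The rise of 1.52 ± 0.27 (adjusted p = 0.000661) passed in every fit run, and the Mll2 effect was 0.27 ± 0.23 (adjusted p = 0.384). The 2 effects differed by 1.24 ± 0.35 (adjusted p = 0.0213), a call lost without DKO 2 (0.0848), CTR 1 (0.113) or Mll2 WT 1 (0.124) and with library size as the scaling (0.0766). Gata3 was at 48.1 and 43.1 CPM in libraries labelled DKO and 52.5 and 51.1 CPM in CTR (adjusted p = 0.294), and at 35.1 and 32.3 CPM in Mll2 KO and 45.8 and 39.3 CPM in Mll2 WT (adjusted p = 0.0562). Both mutant labels lay below their controls without overlap. The test of Gata3 depended on the libraries fitted. It passed under the DKO label with the H2A.Z line alone (adjusted p = 0.00897) and without Mll2 KO 1 (0.0203) or KO 2 (0.02), and in Mll2 KO without KO 1 (0.0175). Gata2 and Gata6 were tested without a call in either line, and Gata5 had 0 counts. Of the Gata cofactors Zfpm1 and Zfpm2, Zfpm2 rose under the DKO label, with 1.95 and 1.14 CPM and 0.620 and 0.677 CPM in CTR (1.25 ± 0.43, adjusted p = 0.0389). That call was lost without DKO 1 (adjusted p = 0.321), CTR 1 (0.161), CTR 2 (0.146), Mll2 KO 1 (0.0506), KO 2 (0.0515) or WT 2 (0.0852), with DESeq2 (0.123) and with library size as the scaling (0.068).

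Gata4 is also a gene of ovarian granulosa and theca cells, so markers of other ovarian cells are given here. The summed level of 20 granulosa and cumulus markers was 130.02 and 132.02 CPM in the libraries labelled DKO and 95.0 and 98.3 CPM in CTR, and 104.9 and 105.7 CPM in Mll2 KO and 93.0 and 94.9 CPM in Mll2 WT. Of these markers 13 were tested, with 4 higher and 2 lower under the DKO label and 5 higher and 2 lower in Mll2 KO. Foxl2, which defines granulosa cells, had 2 and 5 counts in libraries labelled DKO, 0 and 3 in CTR, 1 and 3 in Mll2 KO and 0 and 0 in Mll2 WT, and Amh had 1 and 1 counts in CTR and 0 in the other 6 libraries. For theca, stroma and surface epithelium, 16 markers summed to 29.0 and 25.3 CPM in libraries labelled DKO and 17.6 and 18.6 CPM in CTR, and to 14.4 and 15.3 CPM in Mll2 KO and 12.9 and 13.2 CPM in Mll2 WT. Of these 6 were tested, with 1 higher and 1 lower under the DKO label and 2 higher and 1 lower in Mll2 KO. Their collagen genes were at or near 0 everywhere, with Col1a1 and Col1a2 at 0 or 1 count a library and Col3a1 at 0. For blood, immune and endothelial cells, 16 markers summed to 43.8 and 38.3 CPM in libraries labelled DKO, 31.2 and 30.7 CPM in CTR, 44.5 and 56.2 CPM in Mll2 KO and 50.4 and 48.1 CPM in Mll2 WT, with Pecam1 as the main part and Cdh5 at 0. Of these 5 were tested, with 1 called under the DKO label, higher, and 1 higher and 1 lower in Mll2 KO. The part of these sums in the members' changes was not tested, and in pooled oocytes more cells of a type and more RNA per cell cannot be told apart.

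Prrx1, a homeodomain factor of limb and craniofacial mesenchyme (chr1:163245119-163315145), had the highest fold change of the called members. It was at 15 and 14 CPM in libraries labelled DKO and 0.568 and 0.159 CPM in CTR, and at 0.842 and 1.51 CPM in Mll2 KO and 0.463 and 0.626 CPM in Mll2 WT. Both libraries labelled DKO lay above the other 6. The log2 fold change was 5.39 ± 0.41 (adjusted p = 3.14e-07), and it exceeded the Mll2 effect by 4.28 ± 0.62 (adjusted p = 0.000204), both in every fit run. The smaller Mll2 effect of 1.11 ± 0.41 did not pass (adjusted p = 0.0522), although it did without the filter (0.0199), without CTR 1 (0.0411), CTR 2 (0.0405) or KO 1 (0.00603), and with DESeq2 (0.0428), RLE size factors (0.0497) or library size as the scaling (0.0333). Pdgfra, a receptor that mesenchymal cells carry, had 14 and 13 counts in libraries labelled DKO and 4 and 4 in CTR. It is 1 of the 16 theca, stroma and surface epithelium markers above. Of the 6 tested in that list 1 was higher and 1 lower under the DKO label, and its collagen genes were at or near 0. A link between Pdgfra and the rise of Prrx1 was not tested. Prrx2 had 0 and 0 counts in libraries labelled DKO and 0 and 1 in CTR, and 1 and 7 in Mll2 KO and 0 and 3 in Mll2 WT.

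**Figure D5:**
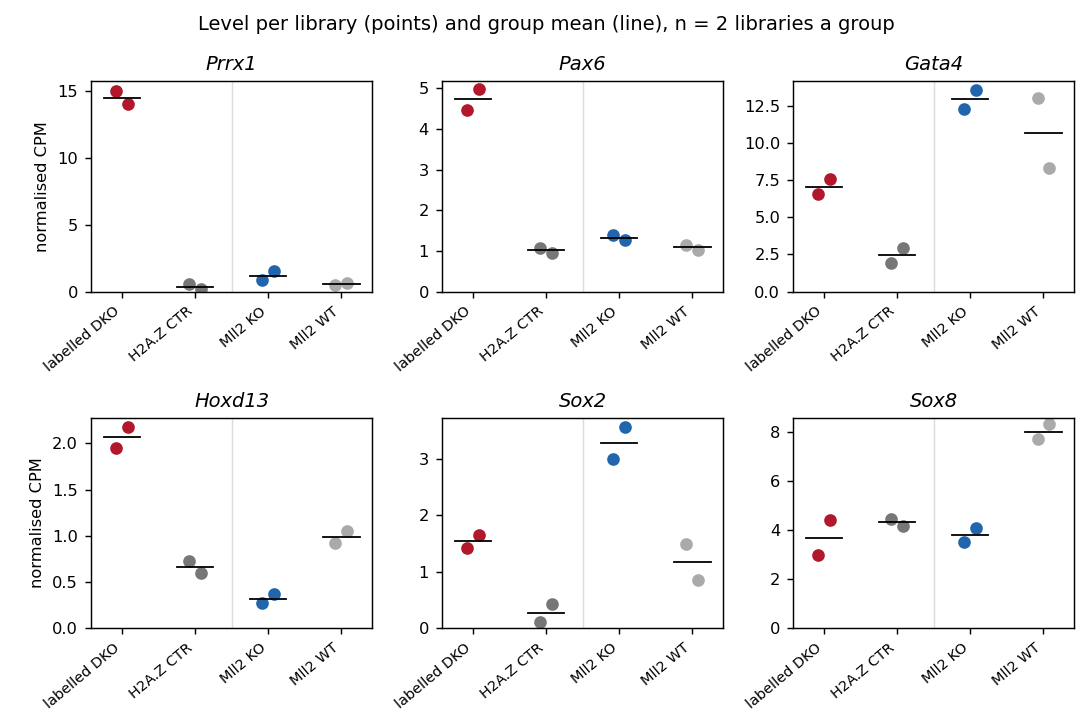
Normalised CPM per library (points) and group mean (line) for 6 of the 8 members with a call that held in every fit run, n = 2 libraries a group. Prrx1, Pax6 and Gata4 are higher in both libraries labelled DKO than in both H2A.Z CTR libraries, Hoxd13 goes in opposite directions in the lines, and Sox8 is lower in both Mll2 KO libraries.

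Sox factors bind DNA through an HMG box and hold stem and progenitor states. Of 8 tested Sox genes, 3 were higher under the DKO label, and 3 were higher and 1 lower in Mll2 KO. Sox2, a core pluripotency factor (chr3:34649995-34652461), rose in both, with 1.42 and 1.66 CPM in libraries labelled DKO and 0.103 and 0.438 CPM in CTR, and 3 and 3.56 CPM in Mll2 KO and 1.49 and 0.857 CPM in Mll2 WT. No groups of a line overlapped. The log2 fold change was 2.40 ± 0.52 under the DKO label (adjusted p = 0.00277), in every fit run, and 1.48 ± 0.39 in Mll2 KO (adjusted p = 0.00909), lost without WT 2 (0.125). The 2 effects differed by 0.92 ± 0.66, which did not pass (adjusted p = 0.358).

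Sox5 and Sox6, closely related genes that act together in cartilage, rose in Mll2 KO. Sox5 was at 4.35 and 2.65 CPM in Mll2 KO and 1.45 and 0.626 CPM in Mll2 WT (1.75 ± 0.40, adjusted p = 0.00388, and 0.0688 without WT 2). Sox6 was at 5.32 and 5.51 CPM in Mll2 KO and 2.94 and 2.04 CPM in Mll2 WT (1.12 ± 0.28, adjusted p = 0.00695, and 0.113 without WT 2). In the H2A.Z line Sox5 was at 2.13 and 1.38 CPM under the DKO label and 1.14 and 1.04 CPM in CTR (adjusted p = 0.245), and Sox6 at 1.64 and 1.38 CPM under the DKO label and 1.09 and 1.63 CPM in CTR (adjusted p = 0.801). The difference between lines did not pass for Sox5 (adjusted p = 0.231) or Sox6 (0.129), so the rises were not shown to be particular to Mll2 KO. Sox8, a gene of testis and neural crest (chr17:25565893-25570686), fell in Mll2 KO, with 3.5 and 4.1 CPM against 7.70 and 8.31 CPM in Mll2 WT. This change of -1.07 ± 0.23 (adjusted p = 0.00262) passed in every fit run. In the H2A.Z line 2.97 and 4.41 CPM under the DKO label overlapped 4.44 and 4.18 CPM in CTR (adjusted p = 0.526). The difference between lines, 0.85, was not called for Sox8 either. Sox8 shares 329 exon bases with an antisense gene, 2810468N07Rik, which had 32 and 14 counts in Mll2 KO and 30 and 51 in Mll2 WT, and shared reads cannot be told apart, since nothing states whether counting used strand. Of the 24 called members 6 share exon bases with another gene. Sox5 shares 1330 with Sox5os1 and Sox17 shares 804 with Gm37587, both on the opposite strand and neither counted here.

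Sox17, an endoderm and germ cell factor, was at 1.42 and 0.996 CPM in libraries labelled DKO and 0.103 and 0.279 CPM in CTR (2.57 ± 0.72, adjusted p = 0.0131). The call was lost without DKO 1 (0.114) or CTR 1 (0.123), and in the Mll2 line 0.438 and 0.101 CPM in KO overlapped 0.132 and 0.165 CPM in WT (adjusted p = 0.458). Sox12 was at 1.46 and 0.474 CPM in libraries labelled DKO and 0.155 and 0.358 CPM in CTR, a rise of 1.86 ± 0.68 just under the threshold (adjusted p = 0.0485). It was lost without DKO 1 (0.533), CTR 1 (0.242), CTR 2 (0.0874), Mll2 WT 1 (0.0552) or Mll2 WT 2 (0.083), and with RLE size factors (0.0574), library size (0.0752) or DESeq2 (0.0996). In Mll2 KO it was at 0.775 and 1.48 CPM, with 0.463 and 0.330 CPM in Mll2 WT (adjusted p = 0.0679), which passed without KO 1 (0.0202) and without the filter (0.0364). Sox30, a testis gene chosen after its values were seen, had 0 and 0 counts in Mll2 KO and 4 and 8 in Mll2 WT, at least 3.92-fold lower. It was not tested with the filter and passed without it (adjusted p = 0.0389). Sox13 was tested without a call in either line, the other 6 counted Sox genes had 2 to 21 counts each, and Sox10, Sox14, Sox18 and Sox21 had 0.

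T-box factors shape mesoderm, limbs and heart. Of 6 tested Tbx genes 1 fell under the DKO label. In Mll2 KO edgeR called 0, with 1 at an unadjusted p under 0.05 and 0 called by DESeq2. Tbx10 was at 0.665 and 0.901 CPM in libraries labelled DKO and 2.27 and 2.19 CPM in CTR, without overlap (-1.51 ± 0.40, adjusted p = 0.00951). The call was lost without DKO 1 (0.0975) or CTR 1 (0.0505). In the Mll2 line 1.65 and 3.36 CPM in KO overlapped 3.34 and 3 CPM in WT (-0.34 ± 0.33, adjusted p = 0.46), and without KO 2 the fall passed (0.0492). Tbx5, a heart and forelimb gene, was at 0.133 and 0.0474 CPM in libraries labelled DKO and 0.413 and 0.319 CPM in CTR, which did not pass (adjusted p = 0.0722). Tbx18 had 4 and 9 counts in libraries labelled DKO, 1 and 0 in CTR and 0 in all 4 Mll2 libraries, too few to test. Tbx3 and Tbx20 were tested without a call in either line, and Tbx3 shares exon bases with the antisense gene Tbx3os1, which had 1071 to 1568 counts a library. The other 5 counted Tbx genes had 1 to 36 counts each, and Tbx2 had 0.

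Lhx factors pair a homeodomain with LIM domains that recruit Ldb proteins. Lhx2, needed for forebrain, eye and hair follicle, rose in both lines. It was at 5.5 and 4.27 CPM in libraries labelled DKO and 2.74 and 2.47 CPM in CTR (0.91 ± 0.30, adjusted p = 0.0285), and at 7.28 and 12.7 CPM in Mll2 KO and 4.26 and 5.54 CPM in Mll2 WT (1.03 ± 0.26, adjusted p = 0.00788). Neither line's groups overlapped. The first call was lost without DKO 1 (0.199), CTR 1 (0.0944), CTR 2 (0.165) or Mll2 WT 2 (0.076), and with library size as the scaling (0.0639). The second was lost without KO 2 (0.125) or WT 1 (0.0882). Lhx5, a hippocampus and hypothalamus gene, fell in both lines. It was at 0.576 and 0.190 CPM in libraries labelled DKO and 2.02 and 1.43 CPM in CTR (-2.13 ± 0.49, adjusted p = 0.00399, and 0.0544 without DKO 2), and at 0.842 and 1.18 CPM in Mll2 KO and 2.31 and 2.11 CPM in Mll2 WT (-1.13 ± 0.40, adjusted p = 0.0427). The fall in Mll2 KO was lost without CTR 1 (0.0577), CTR 2 (0.0538), KO 1 (0.131), WT 1 (0.163) or WT 2 (0.121), and with DESeq2 (0.117) or library size as the scaling (0.0677). The other 5 Lhx genes had 19 counts or fewer each.

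Of 6 Ldb and Lmo genes 5 were tested. Under the DKO label 3 were higher and 2 lower, and in Mll2 KO 2 were higher and 2 lower. Lmo4 was at 10.4 and 9.96 CPM in libraries labelled DKO and 1.09 and 2.35 CPM in CTR (2.53 ± 0.31, adjusted p = 2.95e-05), and at 0.505 and 0.739 CPM in Mll2 KO and 1.88 and 2.18 CPM in Mll2 WT (-1.70 ± 0.37, adjusted p = 0.00261). These opposite changes differed by 4.23 ± 0.48 (adjusted p = 2.21e-05). Ldb2 had the reverse pattern, with 1.55 and 2.18 CPM in libraries labelled DKO and 7.23 and 8.12 CPM in CTR (-2.05 ± 0.23, adjusted p = 1.04e-05), and 22.2 and 23.3 CPM in Mll2 KO and 14.8 and 12.2 CPM in Mll2 WT (0.75 ± 0.18, adjusted p = 0.00521). The rise of Ldb2 in Mll2 KO was lost without WT 2 (0.104). Lmo3 fell in Mll2 KO to 15.7 and 18 CPM, against 41.6 and 46.6 CPM in Mll2 WT (-1.39 ± 0.15, adjusted p = 5.55e-06). It also fell under the DKO label, to 33.6 and 40.6 CPM against 55.0 and 45.5 CPM in CTR (-0.44 ± 0.14, adjusted p = 0.0317), a call lost without DKO 1 (0.289) or CTR 1 (0.299). Ldb1 rose in both lines, by 0.59 ± 0.17 under the DKO label (adjusted p = 0.014) and 0.68 ± 0.15 in Mll2 KO (adjusted p = 0.00363). The first of these was lost without DKO 1 (0.131), CTR 1 (0.0662), CTR 2 (0.0992) or Mll2 WT 2 (0.0759) and with library size as the scaling (0.0572). Of the Tle corepressors, 4 of 6 in the table were tested, and 1, Tle4, passed in both lines by small margins, at 0.37 ± 0.13 (adjusted p = 0.0381) and 0.40 ± 0.12 (0.0243). Under the DKO label Tle4 lost its call in all 14 alternative fits, with adjusted p between 0.0514 and 0.236, and in Mll2 KO without WT 1 (0.193) or WT 2 (0.0882) and with the line alone (0.0823).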

How the data were processed

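Full-length cDNA was made from pooled oocytes with the SMART-Seq v4 kit and 200 pg of it went into Nextera XT libraries, per the labels. The deposited table holds whole-number counts per gene for 8 libraries, and the submitters' processing notes name RSEM 1.3.1, STAR 2.7.3, Trim Galore 0.6.4 and build mm10. Annotation, strand and rounding: not given in the sources used here. A single edgeR 4.0.16 quasi-likelihood fit (R 4.3.3, limma 3.58.1) had 4 group means and 4 residual degrees of freedom, with filterByExpr by group at its default minimum count of 10, TMM scaling, robust dispersion and Benjamini-Hochberg adjustment. The SE is the log2 fold change divided by the square root of F. Count ratios have exact binomial 95% intervals, scaled for library totals, and like the floor of 3 counts they cover counting error only. DESeq2 1.42.0, other scalings, no filter, each line alone, the replicate number as a block, and leaving out each library were alternatives. The script was tested on simulated data.

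Every member called in either comparison or at 10 CPM or more in a group is given by library, with up to 4 called genes of each partner or other developmental list, and the targeted genes. Genes that meet this rule but are not named are not reported here; counts and sums include them. The members and lists were chosen with earlier results of these data known. Positions and promoter windows are RefSeq's (mm10), and exon overlaps come from GENCODE.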

Additional observations from a re-analysis of the deposited data

Results flagged for a closer look

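The effect of the mutant label differed between the H2A.Z line and the Mll2 line, by the test of that difference in edgeR, for 9 members, of which 7 are given. As log2 fold change in the H2A.Z line minus that in the Mll2 line, the difference was 4.28 for Prrx1, 3.26 for Hoxd13, 2.98 for Hoxd9, 1.93 for Pax6, 1.24 for Gata4 and 0.60 for Gata1, and it was -4.71 for Hoxa10. For Hoxd13 the libraries labelled DKO lay above CTR while the Mll2 KO libraries lay below WT, and both single effects passed the test. For the other 6 given the effect passed in the H2A.Z line and did not in the Mll2 line. The Hoxa10 difference (adjusted p = 0.0189) was lost without DKO 2 (0.0983), CTR 2 (0.125), Mll2 WT 1 (0.0591) or WT 2 (0.0656), and the Hoxd9 difference (adjusted p = 0.0228) without DKO 2 (0.0942), CTR 1 (0.0908), CTR 2 (0.0708), KO 2 (0.0547), WT 1 (0.0806) or WT 2 (0.0783) and with DESeq2 (0.0874). The differences of Hoxd13, Pax6 and Prrx1 passed in every fit run.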

How the results depend on the processing

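No named member reversed under any setting run. Of 38 called results, 12 passed under every setting and 26 lost their call in at least 1 fit without a library. Members higher under the DKO label numbered 15, and 12 with RLE size factors, 10 with library size alone, 11 with DESeq2 and 7 to 13 without 1 library. Members lower there numbered 4, and 2 to 6 without 1 library. In Mll2 KO, 4 were higher, 7 without the filter and 1 to 8 without 1 library, and 6 were lower, 3 with DESeq2 and 1 to 9 without 1 library. The difference between lines was called for 9 members, and for 5 to 10 without 1 library. Over all genes 5198 were called in the H2A.Z line (2642 to 6568 without 1 library) and 5158 in the Mll2 line (2681 to 6819). For these counts the cause was not tested. The number of members tested also differed, with 38 in the main fit and 84 without the filter. DESeq2 had a value for 32 in the H2A.Z line and 36 in the Mll2 line. Of all tested genes, DESeq2 called 27% in each line and the fit without the filter 20.5% in each, against 30.9% and 30.6% in the main fit. Higher calls made up 62.9% in the H2A.Z line and 47.1% in the Mll2 line, and 45.5% and 62.9% with library size alone. With each line fitted alone they made up 48.6% and 47.2%. That fit also tested fewer genes in the H2A.Z line, 15721 against 16847. Which step moved the share was not tested. Same-numbered libraries did not deviate together (r = 0.04 in the H2A.Z line and -0.02 in the Mll2 line), so the numbers were not treated as pairs. With the replicate number as a block, 13 members were higher and 4 lower under the DKO label, 5 higher and 5 lower in Mll2 KO, 9 differed between lines, and 4988 and 4968 genes were called. The block ended the calls under the DKO label of Hoxd9 (adjusted p = 0.0655), Sox12 (0.0822), Zfpm2 (0.0582) and Tle4 (0.0581), and with it the rise of Prrx1 in Mll2 KO passed (0.0429). Depth limits the 46 counted members with 36 counts or fewer in all, which were not tested.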

Other observations

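Of 33 Nkx, Dlx, Msx, Irx, Emx and Otx genes 6 were tested, with 3 higher and 1 lower under the DKO label and 1 higher and 1 lower in Mll2 KO. Emx1, a gene of the dorsal forebrain, was at 21.01 and 21.5 CPM in libraries labelled DKO and 3.36 and 4.66 CPM in CTR (log2 fold change 2.40 ± 0.23, edgeR adjusted p = 2.35e-06). Its relative Emx2, which also acts in the urogenital system, was at 9.66 and 10.1 CPM in libraries labelled DKO and 2.48 and 1.71 CPM in CTR (2.25 ± 0.30, adjusted p = 5.41e-05). Both passed in every fit run. In Mll2 KO, Emx1 was at 6.17 and 8.90 CPM, with 4.56 and 4.68 CPM in Mll2 WT (0.71 ± 0.22, adjusted p = 0.0233), a call lost without KO 2 (0.224), WT 1 (0.114) or WT 2 (0.127) and with the line alone (0.0674). The lines differed for Emx1 by 1.69 ± 0.31 (adjusted p = 0.00149) and for Emx2 by 2.40 ± 0.41 (adjusted p = 0.000783).

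Otx1, a forebrain and inner ear gene, fell in Mll2 KO to 0.371 and 1.65 CPM, against 8.33 and 6.49 CPM in Mll2 WT (-2.87 ± 0.43, adjusted p = 0.000222), and was at 2.13 and 1.80 CPM in libraries labelled DKO and 2.02 and 3.03 CPM in CTR (adjusted p = 0.563). Irx5 had 0 and 1 counts in libraries labelled DKO and 7 and 6 in CTR (adjusted p = 0.0229), a call lost without DKO 1 (0.153) or CTR 1 (0.101) and with DESeq2 (0.0727). Of 15 Fox A, C, D, F and G and Pitx genes 3 were tested. Foxa3, an endoderm gene, was at 1.85 and 2.59 CPM in Mll2 KO and 0.429 and 0.626 CPM in Mll2 WT (2.06 ± 0.41, adjusted p = 0.00144). Under the DKO label edgeR and DESeq2 called 0 of the 3, with 1 at an unadjusted p under 0.05.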
